A study of Mus musculus with 32 samples.

Results

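The genes described here are the 10 core genes of the mammalian circadian clock, Arntl (also called Bmal1), Clock, Per1, Per2, Per3, Cry1, Cry2, Nr1d1, Nr1d2 and Dbp. They were chosen by their symbols, as known clock genes, and make up 10 of the 32285 genes in the count table. All 10 were found in it and passed the filter on low counts in each of 8 comparisons. Whole urinary bladders of 32 female C57BL/6 mice, an inbred laboratory strain, were profiled by total RNA sequencing. The bladders fell into 6 groups, of which 3 were untreated: young mice of 2 months (n = 6), middle-aged mice of 10 months (n = 5) and old mice of 26 months (n = 6). The other 3 groups were also 26 months old and had been gavaged from 21 to 26 months of age, on 3 days of each month, with water (n = 5), with the drug vehicle (n = 4) or with D+Q (n = 6). D+Q is dasatinib, a tyrosine kinase inhibitor given at 5 mg/kg, with quercetin, a plant flavonoid given at 50 mg/kg, a combination used to remove senescent cells. The comparisons ask how clock genes differ with age, with the gavage and with the drugs. The study housed mice in alternating light and dark, and the time of day at which bladders were taken was not given in the sources used here.

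The circadian clock is a feedback loop of transcription that runs in nearly every cell. ARNTL and CLOCK, or its relative NPAS2, form the activator that binds E-box sequences and switches on the Per, Cry and Nr1d genes and Dbp. PER and CRY proteins return to the nucleus and inhibit that activator, while NR1D1 and NR1D2 (REV-ERB alpha and beta) repress Arntl through the RORE, a sequence they share with the activating ROR receptors. DBP, with its relatives TEF and HLF, drives further genes through D-box sequences. Arntl messenger RNA therefore peaks at about the opposite time of day from Dbp, Nr1d1 and the Per genes. In the bladder the clock has been tied to the daily rhythm of urine storage.

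In the annotation of the count table, on build mm10, the activator genes are Arntl (ENSMUSG00000055116, chr7:113207465-113314126, plus strand) and Clock (ENSMUSG00000029238, chr5:76209868-76304792, minus strand). The period genes are Per1 (ENSMUSG00000020893, chr11:69095217-69109960, plus strand), Per2 (ENSMUSG00000055866, chr1:91415982-91459324, minus strand) and Per3 (ENSMUSG00000028957, chr4:151003652-151044665, minus strand). The cryptochrome genes are Cry1 (ENSMUSG00000020038, chr10:85131700-85185064, minus strand) and Cry2 (ENSMUSG00000068742, chr2:92403646-92434043, minus strand). Nr1d1 (ENSMUSG00000020889, chr11:98767932-98775333, minus strand), Nr1d2 (ENSMUSG00000021775, chr14:18204054-18239127, minus strand) and Dbp (ENSMUSG00000059824, chr7:45705088-45710203, plus strand) complete the set. Exons of Arntl, Cry2, Nr1d1 and Dbp overlap exons of a gene on the other strand, Gm45355, D930015M05Rik, Thra and Sphk2. The strand setting of the counting was not given in the sources used here, so reads of these pairs cannot be told apart.

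Promoter sequences from RefSeq, on build GRCm38.p6, are shown for the clock genes in which these elements were found. Whether an element relates to the levels of its gene was not tested. Windows of 300 bases, from 250 before the transcription start to 50 from it on, were found for 9 of the 10 genes, in 13 windows, and Per2 had none. Both strands were searched for the E-box CACGTG, the D-box TTATGTAA or TTACGTAA and the RORE core ANTAGGTCA or ANTGGGTCA, and no match overlapped another. Among 32851 windows of that length, 7.15% held the E-box, 1.06% a D-box and 1.45% a RORE core. Of the 13 windows of clock genes, 2 held the E-box, 1 a D-box and 1 a RORE core. Per1, only in its window printed below, and Cry1 held an E-box, and Per3 held 2 D-boxes. Arntl held 1 RORE core, in the second of its 2 windows, at bases 29 to 37 from the start. The 250 bases before the start are printed for Per1 (chr11:69098699-69098948, plus strand), Per3 (chr4:151044666-151044915, minus strand) and Cry1 (chr10:85185055-85185304, minus strand), and 30 bases around the RORE core for Arntl (chr7:113207529-113207558, plus strand). Each reads 5′ to 3′ on the gene's strand, with the matched element in capitals.
Per1: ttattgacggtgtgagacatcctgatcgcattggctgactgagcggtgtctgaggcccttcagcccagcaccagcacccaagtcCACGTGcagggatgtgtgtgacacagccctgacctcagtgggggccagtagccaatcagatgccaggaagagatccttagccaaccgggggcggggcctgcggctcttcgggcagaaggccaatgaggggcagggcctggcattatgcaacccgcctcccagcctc
Per3: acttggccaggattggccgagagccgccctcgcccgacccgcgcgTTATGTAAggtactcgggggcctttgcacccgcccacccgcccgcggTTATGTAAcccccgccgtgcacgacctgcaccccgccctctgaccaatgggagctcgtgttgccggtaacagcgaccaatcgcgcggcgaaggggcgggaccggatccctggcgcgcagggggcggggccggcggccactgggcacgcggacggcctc
Cry1: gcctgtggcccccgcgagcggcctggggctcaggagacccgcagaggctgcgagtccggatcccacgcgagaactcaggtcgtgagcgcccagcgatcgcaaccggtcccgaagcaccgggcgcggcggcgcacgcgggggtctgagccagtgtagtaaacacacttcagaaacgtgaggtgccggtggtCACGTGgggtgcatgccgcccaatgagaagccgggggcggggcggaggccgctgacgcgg
Arntl: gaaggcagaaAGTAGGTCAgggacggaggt
A match is a description of the letters only. The E-box stood 166 to 161 bases before the start of Per1 and 60 to 55 bases before that of Cry1, and the D-boxes of Per3 began 205 and 158 bases before its start.

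Libraries held 15088372 to 52650259 counted reads, and mitochondrial genes took 2.12% to 3.32% of them. The least abundant member, Arntl, had 101 to 722 reads in each bladder, and every other member had at least 307 reads. Urothelial and smooth muscle markers were high in every bladder, with summed levels of 3514 to 4715 and 21280 to 30940 CPM, counts scaled to a fixed library total, the main cell types of the bladder wall. In bulk tissue, fewer cells of a type and less RNA in each cell cannot be told apart. Levels below are CPM with library totals scaled by the trimmed mean of M-values (TMM) over all 32 bladders, given as mean ± SD.

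Corrected for transcript length and scaled to a fixed total per bladder (TPM), the clock genes spanned a wide range in young bladders. Nr1d1, the repressor, was the highest at 333 ± 58.0 TPM, followed by Dbp, the output factor, at 142 ± 66.7 TPM, Nr1d2 at 89.0 ± 16.8 TPM and Per1 at 79.0 ± 27.7 TPM. Cry2 (33.3 ± 4.89 TPM), Per2 (31.96 ± 10.6 TPM), Per3 (24.6 ± 9.20 TPM), Clock (23.2 ± 4.38 TPM) and Cry1 (19.0 ± 1.78 TPM) formed a middle range, in which neighbours differed by less than the larger of their SDs. Arntl was the lowest at 8.02 ± 2.54 TPM (SD, n = 6). In untreated old bladders Nr1d1 and Dbp were again the highest (273 ± 25.7 and 157 ± 32.4 TPM) and Arntl the lowest (4.16 ± 0.893 TPM, n = 6), while Per2 stood at 60.8 ± 11.8 TPM, above Cry2 (34.1 ± 3.97 TPM).

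**Figure D1:**
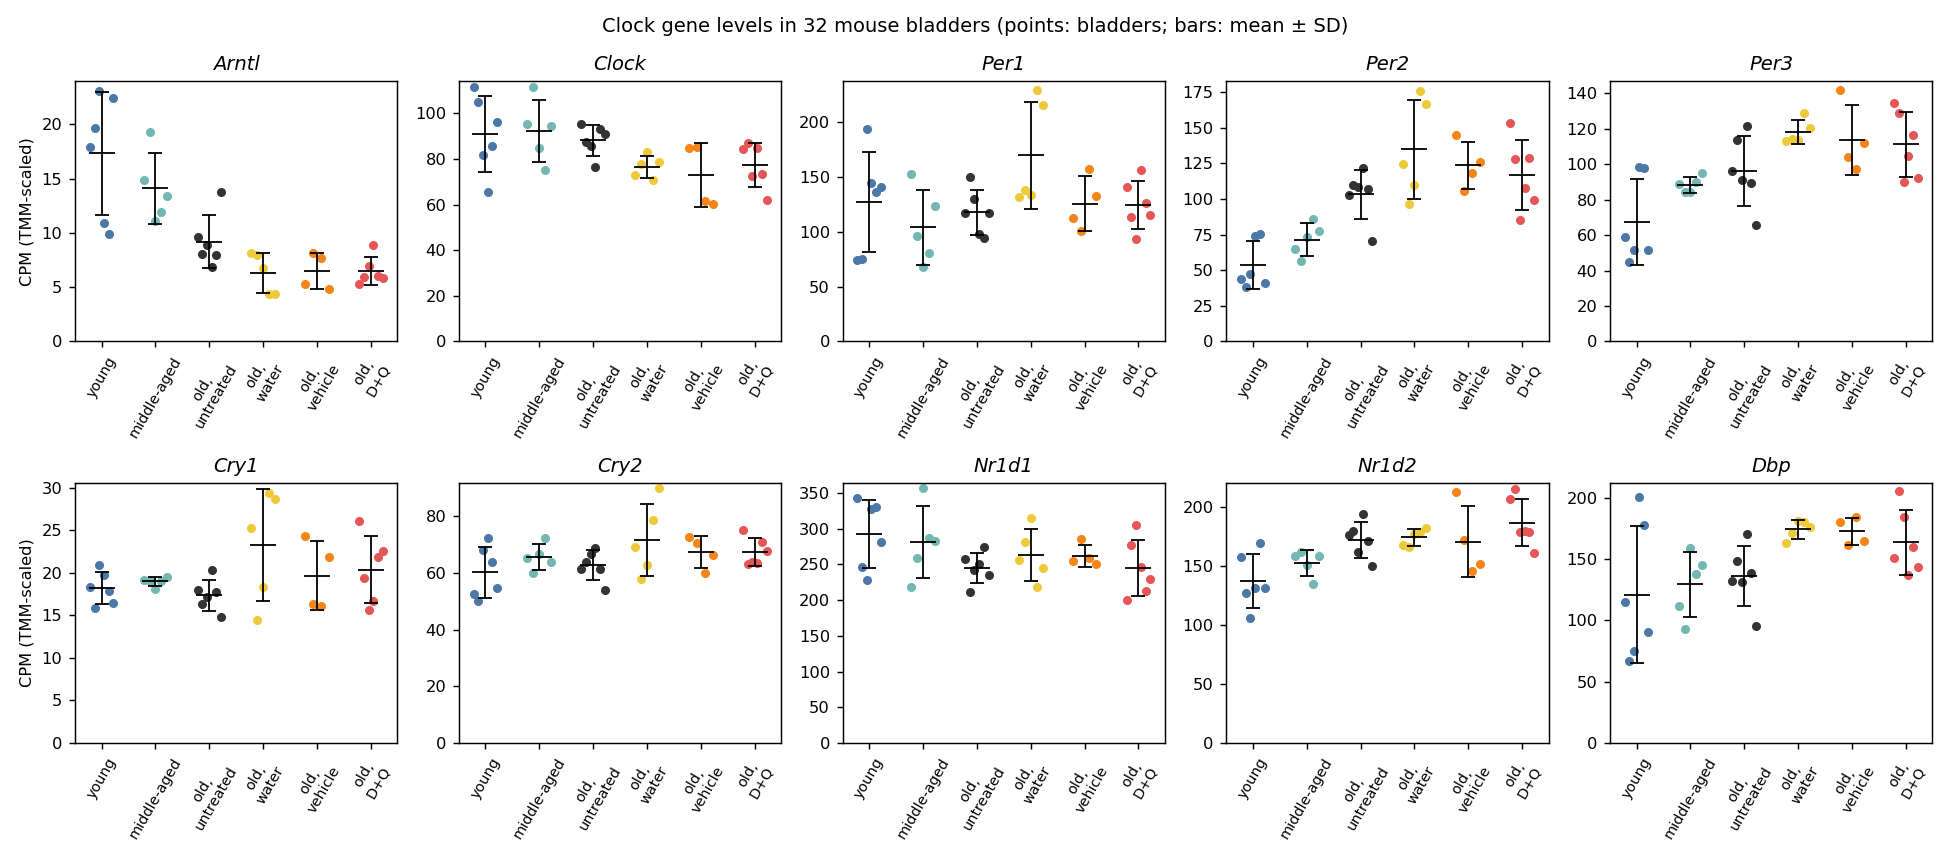
Level of each of the 10 clock genes in every bladder, in TMM-scaled CPM on axes that start at 0, by group. Points are bladders and bars are mean ± SD. Mean Arntl falls from 17.3 CPM in young to 9.20 CPM in untreated old bladders while mean Per2 rises from 53.3 to 103 CPM. No gene shown separates any pair of compared groups completely, and the share of all genes that do was not counted.

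Arntl, the activator subunit whose own transcription the loop drives, was lower with age. In young bladders it ranged from 9.87 to 23.1 CPM with a median of 18.8 CPM (17.3 ± 5.68, n = 6). Middle-aged bladders held 14.9, 19.3, 11.1, 11.9 and 13.4 CPM (14.1 ± 3.26, n = 5). Untreated old bladders ranged from 6.86 to 13.8 CPM with a median of 8.50 CPM (9.20 ± 2.42, n = 6). Old bladders thus lay below every young bladder in 5 of 6 cases, the exception being untreated old replicate 6, and young replicates 4 and 5 (10.9 and 9.87 CPM) lay well below the other 4 young bladders. Arntl fell by 0.91 on the log2 scale between young and untreated old bladders (SE 0.23, edgeR quasi-likelihood adjusted p = 0.00956). Between middle-aged and untreated old bladders it fell by 0.61 (SE 0.18, adjusted p = 0.0252). That call was lost without middle-aged replicate 1 (adjusted p = 0.0502), without middle-aged replicate 2 (adjusted p = 0.0649), without untreated old replicate 5 (adjusted p = 0.0517) and when all 6 groups shared 1 edgeR fit (adjusted p = 0.0600). The middle-aged and young groups differed by -0.28 (SE 0.22, adjusted p = 0.447).

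Clock, the partner of ARNTL, had means of 91.0 ± 16.9, 92.3 ± 13.5 and 88.2 ± 6.71 CPM in young, middle-aged and untreated old bladders. Its log2 differences in the 3 age comparisons lay between -0.065 and 0.031, and none passed the test. Npas2, which can take the place of CLOCK and is described here because it belongs to the list of 21 other clock regulators, fell with age as Arntl did. Its mean was 16.5 ± 4.21 CPM in young, 11.5 ± 1.44 in middle-aged and 8.13 ± 1.23 in untreated old bladders. Npas2 fell by 1.02 between young and untreated old bladders (SE 0.16, adjusted p = 0.000486) and by 0.49 between middle-aged and untreated old bladders (SE 0.11, adjusted p = 0.00606), and in both the groups did not overlap.

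Per2, a repressor of the ARNTL activator, moved the other way. Young bladders ranged from 38.5 to 75.3 CPM with a median of 45.4 CPM (53.3 ± 16.8, n = 6). Middle-aged bladders held 64.7, 56.2, 73.5, 85.6 and 77.3 CPM (71.5 ± 11.4, n = 5). Untreated old bladders ranged from 70.7 to 122 CPM with a median of 108 CPM (103 ± 17.2, n = 6). All but 1 of the 6 old bladders lay above every younger one. The exception was again untreated old replicate 6, and the highest young values were again those of replicates 4 and 5 (74.1 and 75.3 CPM). Per2 rose by 0.96 on the log2 scale between young and untreated old bladders (SE 0.18, edgeR adjusted p = 0.00170) and by 0.53 between middle-aged and untreated old bladders (SE 0.13, adjusted p = 0.0104). The latter call was lost when all 6 groups shared 1 fit (adjusted p = 0.0503). Between young and middle-aged bladders the difference of 0.43 (SE 0.18, adjusted p = 0.146) did not pass, and without young replicate 5 it did (0.57, adjusted p = 0.0430).

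The other repressors of the PER and CRY arm did not pass in any age comparison. Per3 had means of 67.2 ± 24.2, 88.4 ± 4.44 and 96.2 ± 19.8 CPM in young, middle-aged and untreated old bladders, with log2 differences from 0.12 to 0.52 in the 3 age comparisons. In young bladders it ranged from 44.99 to 98.2 CPM, and replicates 4 and 5 were the highest there too. Per1, which glucocorticoids also induce, ranged from 74.5 to 194 CPM in the young group, and had means of 127 ± 45.9, 104 ± 34.2 and 118 ± 20.7 CPM. Cry1 (18.2 ± 1.92, 19.0 ± 0.511 and 17.4 ± 1.85 CPM) and Cry2 (60.2 ± 9.01, 65.6 ± 4.50 and 62.7 ± 5.27 CPM) kept log2 differences between -0.13 and 0.14.

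Nr1d2, a repressor of Arntl, rose between young and untreated old bladders, and its paralog Nr1d1 did not pass. Nr1d2 ranged from 106 to 170 CPM in young bladders (137 ± 22.9, median 131, n = 6) and from 150 to 194 CPM in untreated old bladders (172 ± 15.2, median 174, n = 6). The groups overlapped, with 4 of 6 old bladders above every young one. Nr1d2 rose by 0.33 (SE 0.098, edgeR adjusted p = 0.0261). The call was lost with limma on log2(TPM + 1) of the deposited values (adjusted p = 0.0725) and with limma on log2(TPM + 0.1) (difference 0.31). It was also lost without young replicate 2 or 6 or untreated old replicate 1, 2 or 4 (adjusted p of 0.0503 to 0.0587 with edgeR). Nr1d1 had means of 293 ± 48.0, 281 ± 50.4 and 245 ± 21.3 CPM in young, middle-aged and untreated old bladders, and its difference of -0.25 between young and untreated old did not pass (adjusted p = 0.0788). Dbp, the output factor, had the widest spread of the members in young bladders (SD of 0.65 on the log2 scale), from 67.2 to 201 CPM. Its means were 121 ± 55.7, 129 ± 26.6 and 136 ± 24.5 CPM, and its log2 differences of 0.069 to 0.17 did not pass.

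Of the 10 clock genes, 0 passed between young and middle-aged bladders, where 10.8% of all tested genes did, and 1, Per2, had an unadjusted p under 0.05 (edgeR). Between middle-aged and untreated old bladders 2 passed, 1 in each direction, against 24.0% of all genes. Between young and untreated old bladders 3 passed, 2 higher and 1 lower, against 25.1% of all genes. The number of clock genes that passed was therefore close to what the share of all genes would give in each age comparison. The median log2 difference of the 10 genes was 0.093, 0.0019 and 0.0077 in the 3 comparisons, against 0.0028, -0.0047 and -0.0021 over all tested genes. In no comparison did any clock gene separate its groups completely. How many of all genes do so was not counted, so neither this nor the separation of Npas2 can be set against a share.

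**Figure D2:**
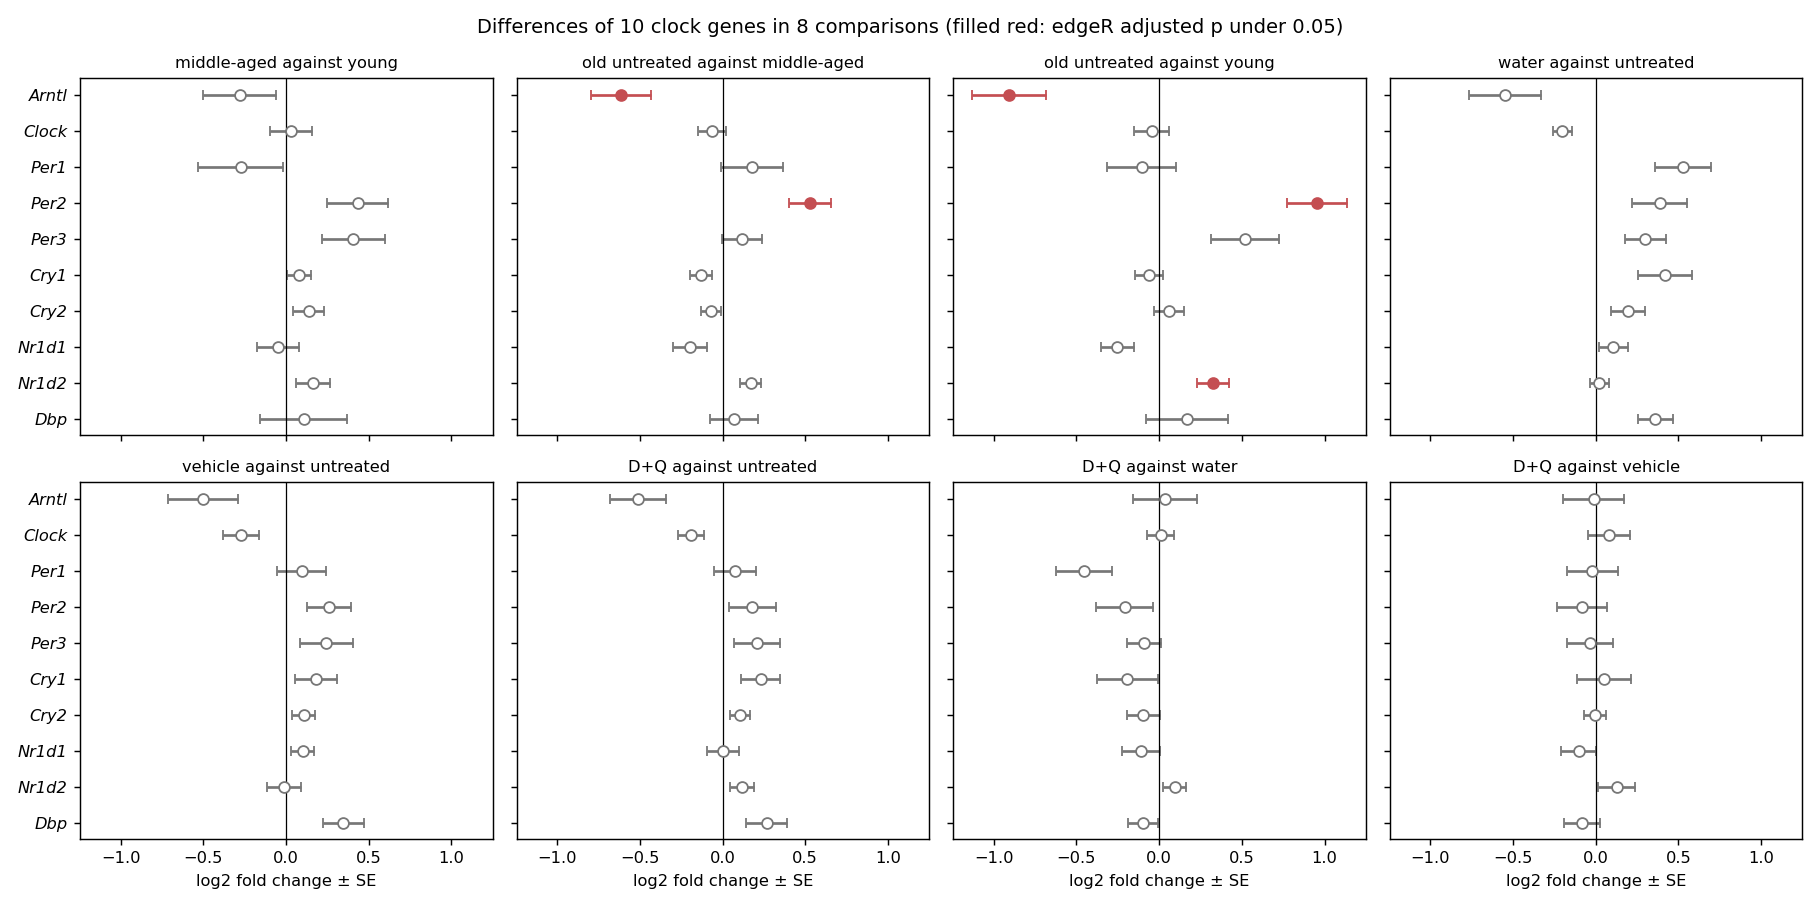
Log2 fold change ± SE of each clock gene in each of the 8 comparisons, from edgeR. Filled red points passed an adjusted p under 0.05. They are Arntl and Per2 between middle-aged and old, Arntl, Per2 and Nr1d2 between young and old, and none in the 5 comparisons with gavaged groups.

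Cell type markers also moved with age, and their part in the clock gene differences was not tested. Over all genes 25.1% passed between young and untreated old bladders, and 24.0% between middle-aged and untreated old bladders. A count of 1 of 4 or 1 of 5 markers is close to these shares. The summed level of 5 B and plasma cell markers was 2.40 to 5.24 CPM in young and 169 to 834 CPM in untreated old bladders, and 5 of 5 passed as higher. For 4 T cell markers the ranges were 5.27 to 9.46 and 22.4 to 50.4 CPM, with 4 of 4 higher. Fibroblast markers summed to 10960 to 19040 CPM in young and 7205 to 8302 CPM in untreated old bladders, with 4 of 5 lower, and endothelial markers to 231 to 262 and 177 to 207 CPM, with 4 of 4 lower. Macrophage markers passed as higher in 2 of 4 (219 to 453 and 299 to 476 CPM), skeletal muscle markers as lower in 3 of 3 tested (512 to 1146 and 379 to 493 CPM), and smooth muscle markers as lower in 2 of 5. Of 4 nerve and Schwann cell markers 1 was higher and 3 were lower, and 0 of 6 urothelial and 0 of 4 adipocyte markers passed. Between middle-aged and untreated old bladders, B and plasma cell (5 of 5), T cell (4 of 4) and macrophage markers (3 of 4) were higher, and urothelial (3 of 6), fibroblast (1 of 5), smooth muscle (1 of 5), endothelial (1 of 4), nerve and Schwann cell (1 of 4) and skeletal muscle markers (1 of 3 tested) were lower. In the 5 comparisons with gavaged groups 0 markers of these 10 lists passed with edgeR, where at most 1.0% of all genes did.

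In the 3 gavaged groups the mean of Arntl was lower than in untreated old bladders (9.20 CPM), with no difference that passed the test. Water-gavaged bladders held 8.15, 7.95, 6.75, 4.40 and 4.33 CPM (6.32 ± 1.86, n = 5), and vehicle-gavaged bladders 5.32, 8.18, 7.64 and 4.81 CPM (6.49 ± 1.67, n = 4). D+Q-gavaged bladders ranged from 5.26 to 8.87 CPM with a median of 5.96 CPM (6.47 ± 1.30, n = 6). Of these, 3 of 5, 2 of 4 and 4 of 6 bladders lay below every untreated old bladder. The log2 differences from untreated old bladders, a group that all 3 comparisons share, were -0.55 (SE 0.22) with water, -0.50 (SE 0.21) with vehicle and -0.51 (SE 0.17) with D+Q, and none passed over all genes (edgeR adjusted p = 0.244, 0.563 and 0.296).

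Clock, the partner of ARNTL, also had lower means in the gavaged groups, and Dbp higher ones. Clock had means of 76.6 ± 4.80, 73.0 ± 13.9 and 77.4 ± 9.75 CPM with water, vehicle and D+Q, against 88.2 ± 6.71 CPM in untreated old bladders, with log2 differences of -0.20 (SE 0.058), -0.27 (SE 0.11) and -0.19 (SE 0.080). Dbp had means of 174 ± 7.66, 173 ± 11.04 and 164 ± 26.2 CPM against 136 ± 24.5 CPM, with differences of 0.36 (SE 0.11), 0.35 (SE 0.12) and 0.27 (SE 0.13). Per2 held 125, 96.2, 110, 176 and 167 CPM with water, 145, 106, 118 and 126 CPM with vehicle, and 85.3 to 153 CPM (median 118) with D+Q. Water-gavaged replicates 4 and 5 had the highest Per2, Per1 (230 and 216 CPM), Cry1 (29.4 and 28.6 CPM) and Cry2 (78.8 and 89.8 CPM) of that group and the lowest Arntl.

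The remaining members are given here for the gavaged groups beside untreated old bladders. Dbp held 163, 171, 181, 180 and 176 CPM with water and 180, 162, 184 and 165 CPM with vehicle, so that 4 of 5 and 2 of 4 bladders lay above every untreated old one. Per3 had means of 118 ± 6.64, 114 ± 19.7 and 111 ± 18.5 CPM with water, vehicle and D+Q, against 96.2 ± 19.8 CPM in untreated old bladders. Cry1 (23.2 ± 6.58, 19.6 ± 4.07 and 20.4 ± 3.93 CPM, against 17.4 ± 1.85 CPM) and Cry2 (71.7 ± 12.8, 67.3 ± 5.58 and 67.3 ± 4.85 CPM, against 62.7 ± 5.27 CPM) also had higher means in each gavaged group, and none of these differences passed with edgeR. Nr1d1 (263 ± 36.7, 262 ± 15.4 and 245 ± 39.5 CPM, against 245 ± 21.3 CPM) and Nr1d2 (174 ± 7.25, 171 ± 30.2 and 187 ± 20.2 CPM, against 172 ± 15.2 CPM) did not pass either.

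In the comparison of water-gavaged with untreated old bladders, 0 of 10 clock genes passed, against 1.0% of all genes. An unadjusted p under 0.05 was held by 7 clock genes and by 2760 of 17250 genes in all (edgeR). The smallest adjusted p was that of Clock (-0.20, SE 0.058, adjusted p = 0.125). With DESeq2 Clock and Dbp passed (adjusted p = 0.0318 and 0.0276), and Clock passed with edgeR without untreated old replicate 4 (-0.24, adjusted p = 0.0447). With vehicle, 0 of 10 clock genes passed, as did 0% of all genes. The clock genes with an unadjusted p under 0.05 numbered 3, and 1464 genes had one in all (edgeR). Dbp had the smallest adjusted p there (0.511). With D+Q against untreated old bladders 0 of 10 clock genes and 0% of all genes passed (edgeR, 2 clock genes and 2200 genes at an unadjusted p under 0.05), and Arntl had the smallest adjusted p.

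Between D+Q-gavaged and vehicle-gavaged bladders, whose labels differ in the drugs, the clock genes differed by -0.10 to 0.13 on the log2 scale, with SEs of 0.068 to 0.16. Harvest times were not given for either group. Neither a clock gene nor any other gene passed (0% of all genes, edgeR), and 0 clock genes and 722 genes had an unadjusted p under 0.05. The smallest adjusted p was that of Clock (0.080, SE 0.13, adjusted p = 0.994), and its difference was -0.010 without vehicle-gavaged replicate 4. Against water-gavaged bladders, D+Q gave differences from -0.45 to 0.093. Per1 was at 170 ± 48.6 CPM with water and 124 ± 22.04 CPM with D+Q (-0.45, SE 0.17, edgeR adjusted p = 0.568), and 0 clock genes and 0% of all genes passed, with 1 clock gene and 1342 genes at an unadjusted p under 0.05. With DESeq2, 0 clock genes passed as well between young and middle-aged bladders and in each gavage comparison other than that of water with untreated old bladders. Differences of the size of these standard errors were not detectable in groups of 4 to 6 bladders, and larger ones could also be missed. Clock with water, given above, differed by several times its SE and did not pass with edgeR.

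Within the groups, clock genes varied together from bladder to bladder. After removal of the group means, log2 levels of all 45 pairs were correlated over the 32 bladders, with p from 100000 permutations within groups. Of these pairs, 17 passed at an adjusted p under 0.05, 10 positive and 7 negative. The share of pairs of other genes that would pass was not measured. Arntl ran opposite to Per2 (Pearson's r = -0.85, Spearman's rho = -0.83, permutation adjusted p = 0.000338 and 0.000450), Per3 (r = -0.74, rho = -0.72, permutation adjusted p = 0.000450 and 0.000675) and Dbp (r = -0.73, rho = -0.65, permutation adjusted p = 0.000360 and 0.00188). It ran opposite to Cry2 (r = -0.66, rho = -0.66, permutation adjusted p = 0.00504 and 0.00514) and Cry1 (r = -0.55, rho = -0.52, permutation adjusted p = 0.00962 and 0.0200) as well. Without the 2 bladders farthest from the median of Arntl, young replicate 5 and untreated old replicate 6, r stood at -0.80 for Per2, -0.65 for Per3, -0.65 for Dbp, -0.63 for Cry2 and -0.59 for Cry1.

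Among the remaining partners, Clock (r = 0.43, rho = 0.39, permutation adjusted p = 0.0767 and 0.0956) and Nr1d2 (r = -0.43, rho = -0.39, permutation adjusted p = 0.0799 and 0.0921) did not pass with Arntl. Nr1d1 (r = -0.13, rho = -0.10, permutation adjusted p = 0.607 and 0.686) and Per1 (r = -0.093, rho = -0.11, permutation adjusted p = 0.735 and 0.686) showed little relation to it. Per1 and Nr1d1, both direct targets of the activator, ran opposite to each other (r = -0.59, rho = -0.57, permutation adjusted p = 0.0107 and 0.0134, r = -0.71 without the 2 bladders farthest in Per1). The positive pairs were led by Per2 with Per3 (r = 0.84), Per2 with Cry2 (r = 0.79), Per3 with Dbp (r = 0.79) and Cry1 with Cry2 (r = 0.73). Nr1d1 varied with Dbp (r = 0.58, permutation adjusted p = 0.0108), and its r with Per2 was -0.057 (permutation adjusted p = 0.825).

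**Figure D3:**
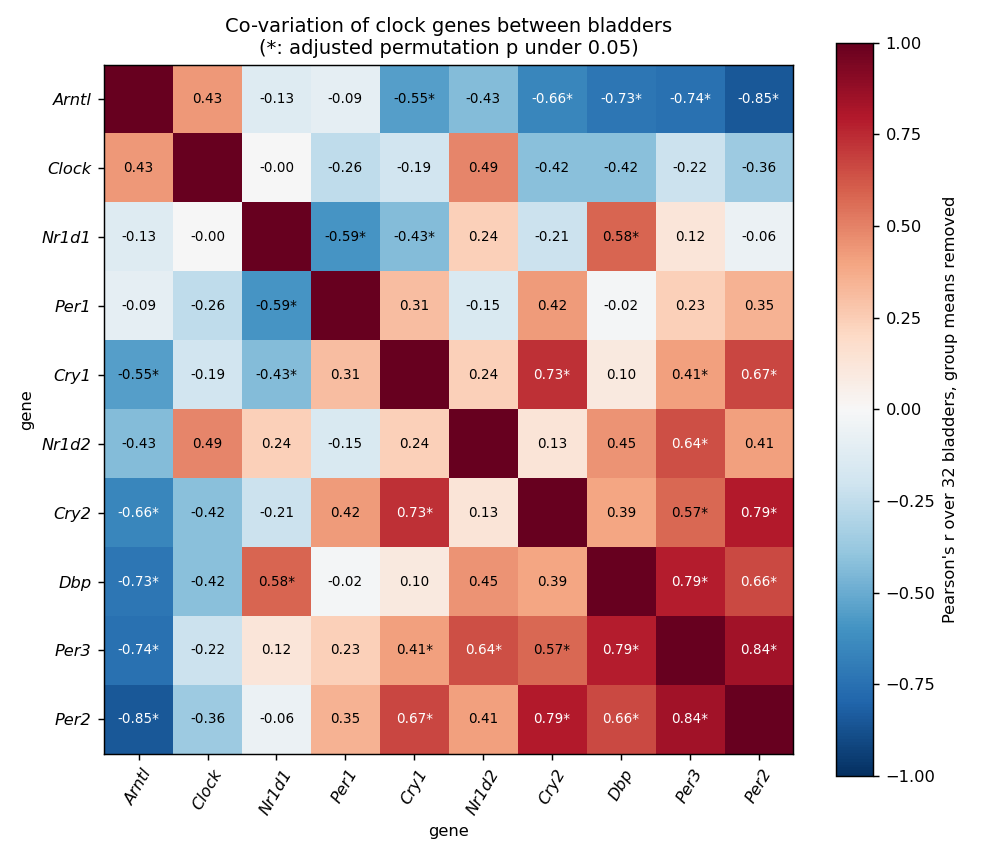
Pearson's r between the log2 levels of each pair of clock genes over 32 bladders with group means removed, with the value in each cell and a star where the permutation adjusted p was under 0.05. Arntl is negative with Per2 (-0.85), Per3 (-0.74) and Dbp (-0.73), which are positive with one another, while Nr1d1 has a star with Dbp (0.58), Per1 (-0.59) and Cry1 (-0.43) alone.

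In single groups of 6 bladders the same pairs were tested exactly over 720 pairings, 27 tests in all, and none passed after adjustment. In untreated old bladders Arntl had r = -0.98 with Dbp and -0.97 with Per2 (exact p = 0.00556 for each, adjusted p = 0.0750), and rho of -0.89 and -0.83. In young bladders r was -0.95 with Per3, -0.92 with Per2 and -0.92 with Dbp (exact p = 0.0278, 0.0472 and 0.0208, adjusted p = 0.113, 0.142 and 0.113). In the same order rho was weaker, at -0.71, -0.60 and -0.77. In D+Q-gavaged bladders r was -0.54 with Per2, -0.46 with Per3 and -0.25 with Dbp (exact p = 0.268, 0.376 and 0.656, adjusted p = 0.481, 0.565 and 0.788). In the same order rho was -0.49, -0.54 and -0.086. With Cry1 and Cry2, r of Arntl was -0.82 and -0.66 in D+Q-gavaged bladders. It was -0.83 and -0.89 in untreated old and -0.16 and -0.50 in young bladders. Whether the D+Q group differed from the others in this respect was not tested. Young replicates 4 and 5 were the lowest in Arntl of their group, and untreated old replicate 6 was the highest of its group.

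**Figure D4:**
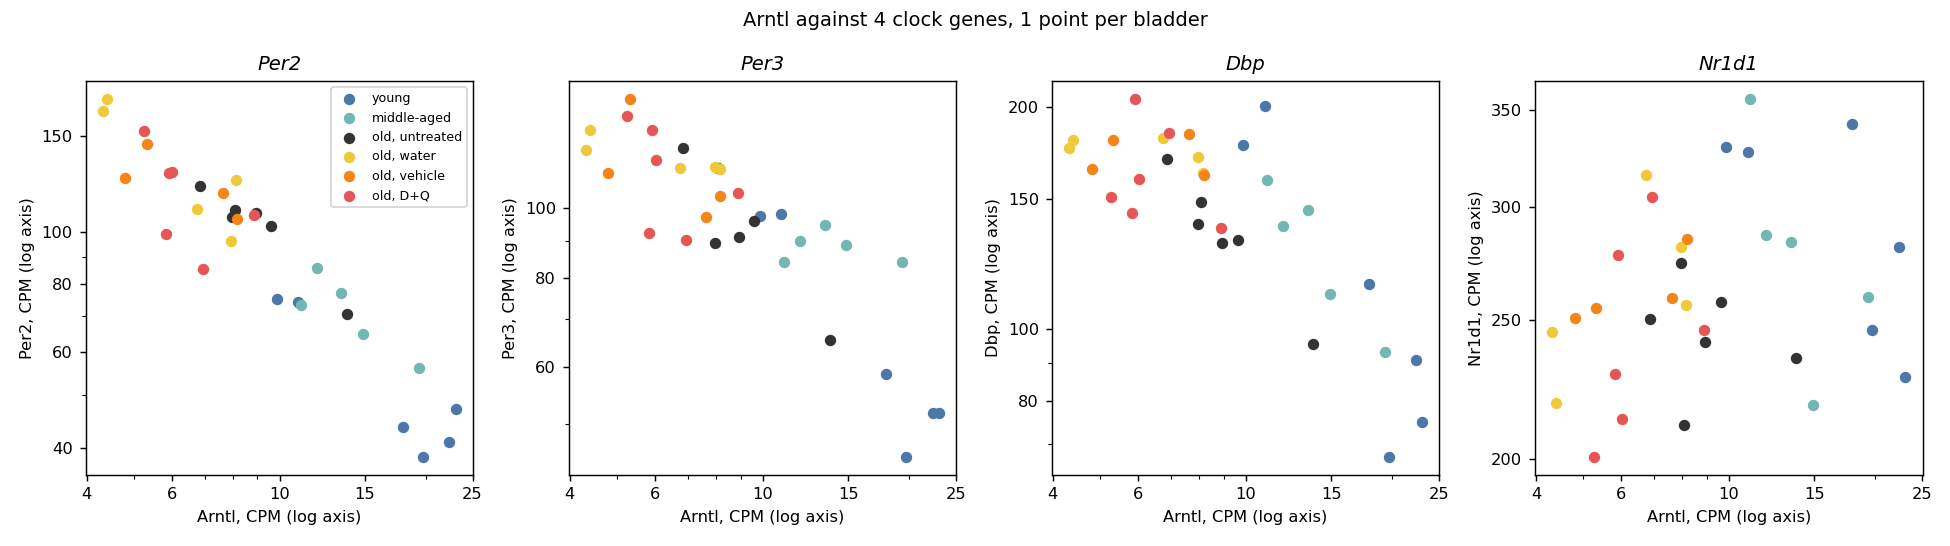
Arntl level against Per2, Per3, Dbp and Nr1d1, in CPM on log axes, with 1 point per bladder coloured by group. Per2 falls from 176 CPM where Arntl is 4.40 CPM to 38.5 CPM where Arntl is 19.7 CPM, along a band that runs through all 6 groups, while Nr1d1 shows no such band.

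Each bladder was given a phase index, the log2 level of Arntl minus the mean log2 level of Per1, Per2, Per3, Nr1d1, Nr1d2 and Dbp. The index was set to 0 at the mean of the 32 bladders. A high index means much Arntl relative to these genes, of which Per1 and Nr1d1 showed little relation to Arntl in these bladders. It is a summary of the members and was not tested. The mean was 1.17 ± 0.85 in young (n = 6), 0.76 ± 0.39 in middle-aged (n = 5) and -0.0097 ± 0.49 in untreated old bladders (n = 6). It was -0.84 ± 0.57 with water (n = 5), -0.68 ± 0.43 with vehicle (n = 4) and -0.64 ± 0.32 with D+Q (n = 6).

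Young bladders split widely on the index, at 1.38, 1.87, 1.82 and 1.74 in replicates 1, 2, 3 and 6 and 0.19 and 0.016 in replicates 4 and 5. The latter 2 lay inside the untreated old range of -0.55 to 0.90, as did 4 of 5 middle-aged bladders. All 15 gavaged bladders lay below the untreated old median of -0.096, and 9 of them, 3 with water, 2 with vehicle and 4 with D+Q, lay below every untreated old bladder. The lowest were water-gavaged replicates 4 and 5 at -1.45 each, and the highest untreated old bladder was replicate 6 at 0.90. Because harvest times were not given, age or gavage and the time of day of harvest cannot be told apart in these values.

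**Figure D5:**
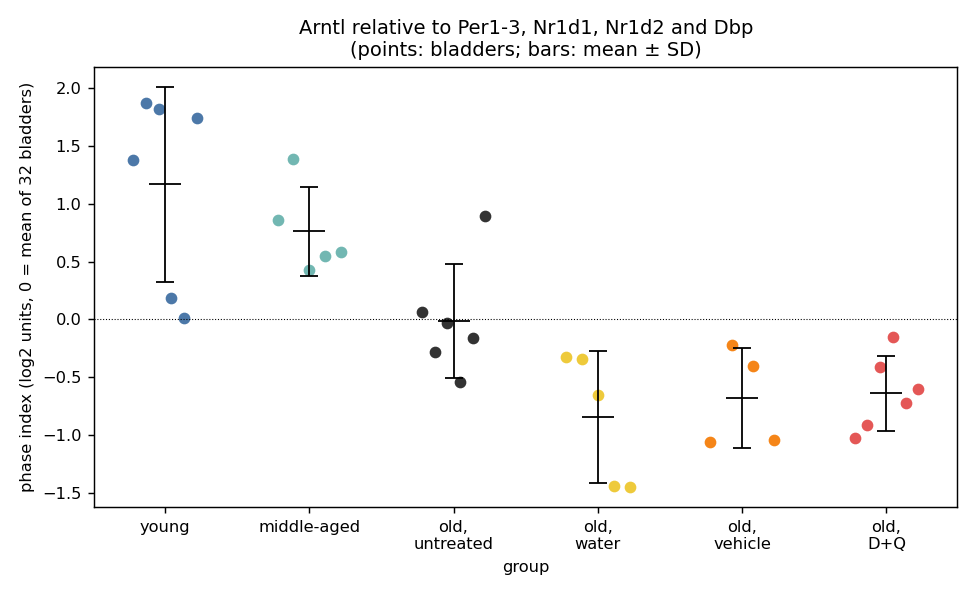
Phase index of each bladder in log2 units by group, with 0 at the mean of the 32 bladders. Points are bladders and bars are mean ± SD. Group means step from 1.17 in young through -0.0097 in untreated old to between -0.84 and -0.64 in the gavaged groups, and young replicates 4 and 5 sit at 0.19 and 0.016 among the old bladders.

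The likeness of other genes to Arntl was measured by the same correlation over 32 bladders, across 15045 other genes with a mean of at least 1 CPM, as a description. The most opposite was Tef (r = -0.84), the relative of Dbp, followed by Fam76a (r = -0.82), Tspan4 (r = -0.76), Hlf (r = -0.75), the other relative of Dbp, and Smpdl3b (r = -0.74). No other gene was as opposite to Arntl as Per2, while 5 were more opposite than Per3 and 8 more than Dbp. More opposite than Cry2 were 30, than Cry1 134, than Nr1d2 551, than Nr1d1 4812 and than Per1 5615. The most alike were Leo1 and Coro2b (r = 0.77 each), Adamts14 (r = 0.74), Dtx4 and Adamts4 (r = 0.73 each). Tef had means of 215 ± 54.5, 259 ± 26.8 and 290 ± 46.7 CPM in young, middle-aged and untreated old bladders, and 350 ± 30.6, 328 ± 37.9 and 322 ± 39.9 CPM with water, vehicle and D+Q. Its difference between young and untreated old bladders was 0.43 (SE 0.15, edgeR adjusted p = 0.0514).

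Pooled over the 6 groups, bladder-to-bladder spread was above the median of all genes for each clock gene, by little for Cry2 and Nr1d2. The SD of log2 CPM pooled within groups was 0.39 for Per1 and Arntl, 0.35 for Dbp, 0.32 for Per2 and 0.29 for Per3, against a median of 0.16 over 18093 genes. All 10 members exceeded that median, at percentiles from 50.7 (Cry2) to 79.5 (Per1), with a median percentile of 68.5. The narrowest were Cry2 (0.16), Nr1d2 (0.17), Clock (0.20) and Nr1d1 (0.20). In single groups a gene could stand elsewhere. Dbp was at percentile 90.9 in young and 15.2 in water-gavaged bladders. Cry1 was at percentile 6.13 in middle-aged and 85.7 in water-gavaged bladders.

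Of the 21 other clock regulators, 4 rose and 1 fell between young and untreated old bladders. The 5, 4 and 3 of 21 that passed between young and old, middle-aged and old, and young and middle-aged bladders stand beside 25.1%, 24.0% and 10.8% of all genes. Rorb, a ROR receptor, rose from 0.257 ± 0.0794 to 0.906 ± 0.278 CPM (log2 difference 1.76, SE 0.27, edgeR adjusted p = 0.000397). Its young levels spanned 0.120 to 0.337 CPM, where 3 reads amount to 0.0873 to 0.205 CPM. Differences of Rorb from the young group therefore rest on few reads. Fbxl21, a subunit of a ligase that targets CRY proteins, rose by 0.48 (SE 0.12, adjusted p = 0.00824). Bhlhe40 (DEC1), a repressor at E-boxes, rose by 0.47 (SE 0.11, adjusted p = 0.00536), and Npas2 fell as given above. Between middle-aged and untreated old bladders 2 rose, Timeless (0.52, SE 0.099, adjusted p = 0.00240) and Bhlhe40 (0.34, SE 0.097, adjusted p = 0.0220), and 2 fell, Npas2 and Fbxl21 (-0.27, SE 0.087, adjusted p = 0.0384). Between young and middle-aged bladders 3 rose, Rorb and Fbxl21 among them, and 0 fell. In the 5 comparisons with gavaged groups 0 of 21 passed with edgeR. An unadjusted p under 0.05 was held by 9 with water against untreated old bladders (2760 of 17250 genes in all). It was held by 1 with vehicle (1464 of 17440) and 1 with D+Q (2200 of 17037) against untreated old bladders. For D+Q it was held by 3 against water (1342 of 17161) and 0 against vehicle (722 of 17267). The medians of this list were 0.013, 0.088 and 0.093 in the young to middle-aged, middle-aged to old and young to old comparisons.

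Over all genes 24.0% passed between middle-aged and untreated old bladders, 13.0% as higher. Of 10 genes whose transcripts follow the clock in many tissues, 6 rose there and 0 fell, with a median of 0.31. The largest were Fmo2, a flavin monooxygenase (0.77, SE 0.081, edgeR adjusted p = 3.5e-05), Hif3a (0.71, SE 0.14, adjusted p = 0.00332), Coq10b (0.52, SE 0.077, adjusted p = 0.000400) and Tsc22d3 (GILZ), which glucocorticoids induce (0.47, SE 0.14, adjusted p = 0.0228). Between young and untreated old bladders 3 of 10 rose, Fmo2 (0.80, SE 0.098), Nampt, the rate-limiting enzyme of NAD salvage (0.43, SE 0.060), and Wee1, a cell cycle kinase (0.31, SE 0.11), with a median of 0.29. That count of 3 of 10 stands beside 25.1% of all genes that passed there, 12.6% as higher. Between young and middle-aged bladders, where 10.8% of all genes passed, Nampt rose and Hif3a fell. With gavage 0 of 10 passed in each of the 5 comparisons, where at most 1.0% of all genes did (edgeR). An unadjusted p under 0.05 (edgeR) was held by 5 of the list with water against untreated old bladders (2760 of 17250 genes in all). It was held by 1 for D+Q against water (1342 of 17161), and by 0 in the other gavage comparisons.

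Glucocorticoid signals can reset peripheral clocks, and 9 genes that respond to them, Per1 and Tsc22d3 included, were followed for that reason. Between middle-aged and untreated old bladders 5 of 9 rose, with a median of 0.47. Over all genes 24.0% passed there, 13.0% as higher. Fkbp5, an inhibitor of the glucocorticoid receptor, rose from 33.6 ± 3.37 to 77.8 ± 7.97 CPM (1.21, SE 0.079, edgeR adjusted p = 3e-06), and Zbtb16 from 34.8 ± 6.91 to 77.9 ± 27.1 CPM (1.16, SE 0.23, adjusted p = 0.00277). Dusp1, a phosphatase that acts on MAP kinases, rose by 0.93 (SE 0.27, adjusted p = 0.0235), and Tsc22d3 rose as given above. Fkbp5 and Zbtb16 also rose between young and untreated old bladders (Fkbp5 1.24, SE 0.093, and Zbtb16 1.28, SE 0.20). These 2 of 9 stand beside 25.1% of all genes, and the list median was -0.061. Between young and middle-aged bladders 2 of 9 fell, Dusp1 (-1.50, SE 0.29) and Cebpd (-0.88, SE 0.25). There 10.8% of all genes passed, 5.85% as lower. Among 8 immediate early genes, which handling and tissue removal can raise, Nr4a1 was the 1 gene that passed in the age comparisons, between middle-aged and untreated old bladders (1.20, SE 0.37, adjusted p = 0.0316). Neither list had a gene that passed in the gavage comparisons (edgeR). With vehicle against untreated old bladders, 5 of 8 immediate early genes had an unadjusted p under 0.05, with a median of -0.64. Over all genes 1464 of 17440 had one. The part of these responses in the clock gene levels was not tested.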

How the data were processed

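RNA was extracted from whole bladders and libraries were made with the Illumina TruSeq Stranded Total RNA kit. Per the labels' processing notes, reads were aligned with STAR 2.7.3 to mm10 and counted per gene with Subread. The authors deposited raw counts per gene with exon lengths, which were used as deposited, and a table of log2 expression. The deposited log2 values were found to be the log2 of (count + 1) over length, scaled to a linear sum of 100000 in each bladder, and 10 times that linear value is called TPM here in the limma alternatives. Gene symbols were assigned to 32158 of 32285 identifiers.

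Genes were kept by filterByExpr and tested with edgeR 4.0.16 (TMM, quasi-likelihood F test, Benjamini-Hochberg over all kept genes, adjusted p under 0.05) in R 4.3.3, with only the 2 groups compared in each of 8 fits. On simulated counts the fit recovered known changes. CPM were taken over all 6 groups, with 0.1 added before logarithms. TPM in the text were computed from counts and exon lengths. Correlations were computed in Python 3.11.15 with two-sided permutation tests, and the smallest p they can give is 1e-05. Alternatives used DESeq2 1.42.0 and limma 3.58.1, other filters (at least 10 counts in every bladder) and normalizations, replicate blocks and each replicate left out.

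All 10 members are described. Differences with their SE are given for members past the threshold of a comparison, or else for the one with the smallest adjusted p, and other values by range. Up to 4 genes per list are named, by size, and 1 is not reported here. The members and lists were chosen with earlier results of these data known, and values named beyond that rule were chosen after they were seen. Labels number each library as a separate bladder, and whether mice shared a cage or a day was not given. The replicate number on the labels was not used to pair mice.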

Additional observations from a re-analysis of the deposited data

Results flagged for a closer look

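In 66 sets of 4 to 6 values, each gene or the phase index in each group, 2 had a bladder set apart from the rest by Dixon's criterion, and chance alone gives about 1 in 20. Per2 in untreated old replicate 6 was the lowest of its group at 70.7 CPM, with the nearest bladder at 102 CPM, a gap of 0.626 of the range. The same bladder had the highest Arntl (13.8 CPM), the lowest Dbp (95.6 CPM) and the lowest Per3 (65.6 CPM) of the untreated old group. Cry1 in middle-aged replicate 3 was the lowest of its group at 18.1 CPM, with the nearest at 19.1 CPM, a gap of 0.731 of the range. That group was narrow, at 19.0 ± 0.511 CPM (SD, n = 5).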

How the results depend on the processing

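Arntl and Per2 passed between young and untreated old bladders under every alternative run, with log2 differences of -1.06 to -0.77 for Arntl and 0.88 to 1.08 for Per2. Among the 10 clock genes, the number that passed between middle-aged and untreated old bladders was 0 with all 6 groups in 1 fit and 1 to 3 with 1 replicate left out. It was 0 to 2 between young and middle-aged bladders and 2 to 4 between young and untreated old bladders with 1 replicate left out. Between water-gavaged and untreated old bladders it was 2 with DESeq2 and 0 to 1 with 1 replicate left out. In all, 173 genes passed in that comparison, against 703 with DESeq2 and 0 with all 6 groups in 1 fit. All genes passing numbered 4110 between middle-aged and untreated old bladders and 1811 between young and middle-aged bladders, against 2519 and 2858 with all 6 groups in 1 fit. The cause of these differences was not tested.

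With the replicate number as a block, 1 clock gene passed between young and middle-aged bladders (Per2) and 5 between young and untreated old bladders (Arntl, Per2, Nr1d2, Per3 and Nr1d1), the latter by the number in either label and the former by the number in the title, with 0 by that in the description. Deviations of same-numbered bladders had r over 0.1 in 3 of 6 pairs between young and untreated old bladders (from -0.11 to 0.32). There 6 of 12 bladders correlated best with their own number, a hint of pairing from the data. Between D+Q and vehicle, by the description number, 5 of 8 did, and 3 of 4 pairs were over 0.1 (from 0.081 to 0.46). Between vehicle and untreated old bladders 0 of 8 did by title and 1 of 8 by description. With either block 0 clock genes passed between D+Q and vehicle (edgeR). As not every pair was over 0.1 and no label gives the numbers a shared origin, the fit without the block was kept. The difference of Clock between D+Q and vehicle turned to -0.010 without vehicle-gavaged replicate 4, and was at most 0.16 with another replicate left out. Without removal of group means, 27 of 45 pairs passed and r of Arntl with Nr1d1 turned to 0.24. The phase index kept its group order with the deposited values, with log2(CPM + 1) and without Per1. Harvest time, cage and strand setting were not given.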
